A study of Mus musculus with 6 samples.

Results

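The cathepsins are the proteases of the lysosome and of the endosomes that feed it. Most are cysteine proteases, with aspartic and serine proteases among them. Most are made as inactive precursors that are sorted to acid compartments and cut there into their active form. Every cell uses some of them to break down protein. Others are made mainly by immune cells, where they trim the invariant chain of major histocompatibility complex (MHC) class II molecules or activate the granule proteases of lymphocytes and neutrophils. In dorsal root ganglia (DRGs), which hold the cell bodies of sensory neurons with their satellite glia, Schwann cells, fibroblasts, and macrophages, cathepsins of both kinds are found. The genes described here were 10 cathepsins taken by symbol, *Ctsa*, *Ctsb*, *Ctsc*, *Ctsd*, *Ctsh*, *Ctsk*, *Ctsl*, *Ctss*, *Ctsw*, and *Ctsz*, of 48440 genes in the count table.

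Total RNA was sequenced from the injected L3/4 DRGs of male WT mice in 2 groups of 3 libraries. The control libraries came from DRGs that received AAV5-*Gfp*, an adeno-associated virus carrying green fluorescent protein. The others came from DRGs that received AAV5-*V1* mixed with AAV5-*V2*, which carry the variants V1 and V2 of *NIS-lncRNA* (AAV5-*V1+V2*). Both groups therefore had been microinjected with a virus, and the paper names CD1 mice for injections of this kind. The age, the cells infected, and the number of animals behind a library are not given in the sources used here. The deposited text places tissue collection at 5 weeks and the comparison at 4 weeks after microinjection. Total counts were between 32025612 and 34764282 a library. All 12 sensory neuron markers examined were well above the filter on low counts, with a summed level of 7679.6 to 8145 CPM (counts scaled to library size) with AAV5-*Gfp*. Below, 3 values given for a group stand in the order of replicates 1, 2, and 3, and the AAV5-*Gfp* libraries are also called the controls. Nothing in the labels says that the 3 libraries of a group came from separate animals, so the p-values below measure only the spread between these libraries.

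Of the 10 cathepsins, 5 were higher in AAV5-*V1+V2* than in AAV5-*Gfp* DRGs and 0 were lower, judged by the quasi-likelihood test of edgeR with its p-values adjusted after Benjamini and Hochberg over the 18593 genes tested (threshold 0.05). Over all genes tested, 10.1% were called higher and 5.27% lower. The 5 were *Ctss*, *Ctsh*, *Ctsw*, *Ctsc*, and *Ctsz*, with fold changes from 8.98 (*Ctss*) down to 1.82 (*Ctsz*). *Ctsa*, *Ctsk*, *Ctsd*, *Ctsb*, and *Ctsl* were not called. All 10 passed the filter on low counts. At an unadjusted p under 0.05, 7 cathepsins were higher and 0 lower, where 19.2% of all genes tested were higher and 15.5% lower. For 6 of them (the 5 and *Ctsa*) every AAV5-*V1+V2* library lay above every AAV5-*Gfp* library, for 0 every library lay below, and 4 overlapped. Such separation was seen upward for 23.4% and downward for 22% of all genes tested. The median log2 fold change was 0.66 over the 10 cathepsins and -0.0003 over all genes tested.

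**Figure D1:**
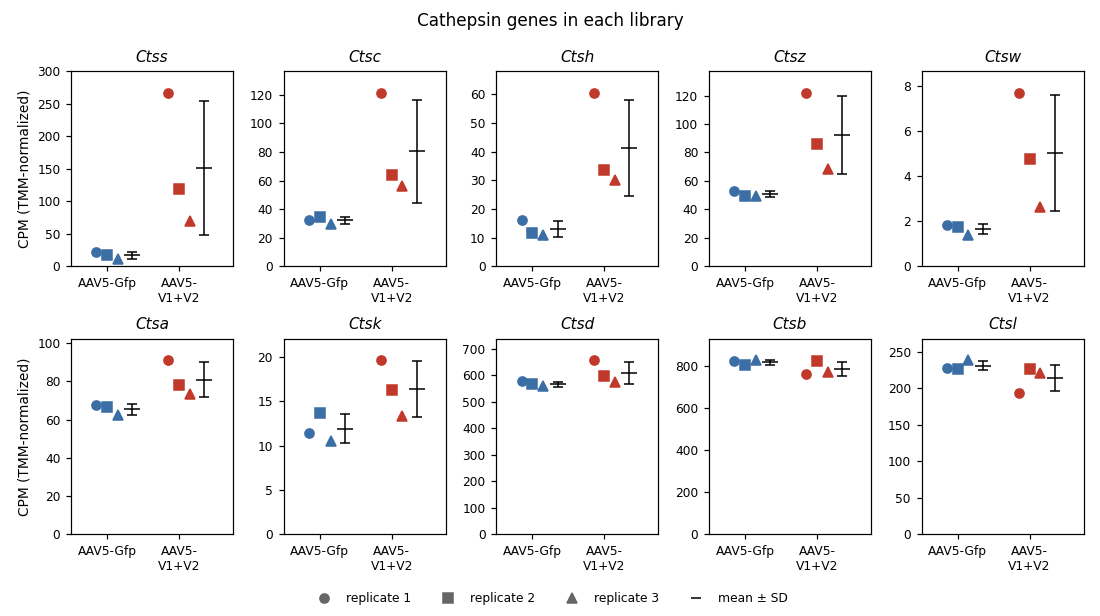
CPM after TMM normalization (y axes, each from 0) of the 10 cathepsin genes in the 3 AAV5-*Gfp* libraries (blue) and the 3 AAV5-*V1+V2* libraries (red), with the mean and SD of each group in black. The groups are apart for *Ctss*, *Ctsc*, *Ctsh*, *Ctsz*, *Ctsw*, and *Ctsa*, and AAV5-*V1+V2* replicate 1 (circle) is the highest of its group in 8 panels and the lowest in those of *Ctsb* and *Ctsl*.

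These calls were lost when any AAV5-*Gfp* library was left out, while the fold changes stayed near those of all 6 libraries. Without AAV5-*Gfp* replicate 1, replicate 2, or replicate 3, 0 of the 10 cathepsins were called by edgeR, while 6, 7, and 6 of them were higher at an unadjusted p under 0.05, as were 16.3%, 15.4%, and 15.5% of all genes tested in those fits. The log2 fold change of *Ctss* was then 3.39, 3.18, and 2.97, against 3.17 with all 6 libraries, and that of *Ctsc* was 1.33, 1.37, and 1.26, against 1.32. The number called over all genes fell as well, from 1872 higher genes to 257, 12, and 15. Without AAV5-*V1+V2* replicate 2, *Ctss*, *Ctsc*, and *Ctsh* remained of the 5. Without AAV5-*V1+V2* replicate 1, the 5 were called, and without replicate 3, 7 were called, with *Ctsa* and *Ctsk* added. AAV5-*V1+V2* replicate 1 stood highest of its group in all 5 higher cathepsins, which was also so for 92.3% of all genes called higher and for 41.4% of all genes tested. The log2 fold change of each of the 10 cathepsins kept its sign in all 13 alternative settings.

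**Figure D2:**
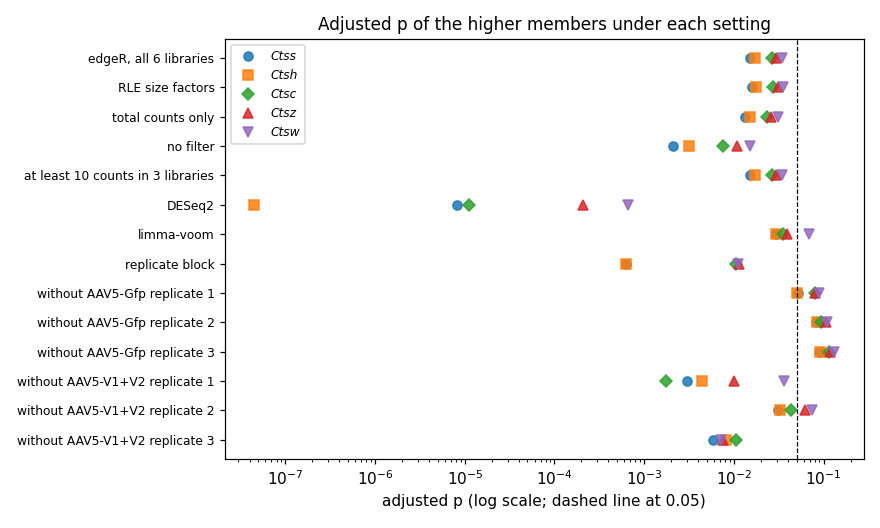
Adjusted p (x axis, log scale) of the 5 higher cathepsins in the fit of all 6 libraries (top row) and in 13 alternative settings (rows), with the threshold of 0.05 as a dashed line. All 5 lie to the right of the line in the fits without an AAV5-*Gfp* library, where the adjusted p is between 0.0506 and 0.132, as does *Ctsw* in limma-voom and do *Ctsz* and *Ctsw* without AAV5-*V1+V2* replicate 2.

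*Ctss* encodes cathepsin S, a cysteine protease of antigen-presenting cells that stays active at neutral pH and makes the late cuts of the MHC class II invariant chain. Its gene lies on chromosome 3 of GRCm38 (95526786 to 95556403, plus strand, GENCODE M21), and its transcript of 1355 bases has 8 exons. *Ctss* was counted at 700, 595, and 370 reads in the controls and 8806, 3953, and 2391 with AAV5-*V1+V2*. The lowest AAV5-*V1+V2* library was far above the highest AAV5-*Gfp* library, and AAV5-*V1+V2* replicate 1 was well above the other two. Normalized levels were 16.9 ± 4.92 CPM in the controls and 152 ± 103 CPM with AAV5-*V1+V2* (SD, n = 3 each). On the log2 scale the fold change was 3.17 (standard error 0.50, 95% interval 1.99 to 4.34, adjusted p = 0.0153). An exact two-sided permutation test gave its smallest possible value, p = 0.1 for 3 libraries against 3. Without AAV5-*V1+V2* replicate 1 the log2 fold change was 2.48 (adjusted p = 0.00297). The adjusted p was 0.0513, 0.0818, and 0.0882 without AAV5-*Gfp* replicate 1, 2, or 3. By log2 fold change *Ctss* ranked 178 of the 1872 higher genes.

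The neighbor of *Ctss* on the chromosome is *Ctsk*, which encodes cathepsin K, the collagen-degrading protease of osteoclasts that fibroblasts also make. *Ctsk* (95499256 to 95509362, plus strand, 8 exons) ends 17423 bp before *Ctss* begins, and both are read in the same direction. It was counted at 370, 475, and 329 reads in the controls and 645, 542, and 457 with AAV5-*V1+V2*. These groups overlapped, since AAV5-*Gfp* replicate 2 (13.7 CPM) was above AAV5-*V1+V2* replicate 3 (13.3 CPM). The log2 fold change of *Ctsk* was 0.46 (standard error 0.16, 95% interval 0.08 to 0.84, adjusted p = 0.0947), and the exact permutation test gave p = 0.2. Within a library, the ratio of *Ctss* to *Ctsk* CPM was between 1.12 and 1.89 with AAV5-*Gfp* and between 5.23 and 13.7 with AAV5-*V1+V2* (exact permutation p = 0.1, a ratio chosen after the values were seen). The genes on either side of the pair, named here for their position, were not called, with log2 fold changes of 0.06 for *Arnt* (adjusted p = 0.606) and -0.78 for *Hormad1* (adjusted p = 0.170). *Hormad1* was barely expressed, with means of 0.380 CPM with AAV5-*Gfp* and 0.219 CPM with AAV5-*V1+V2*, so its fold change is poorly measured. *Arnt* was at 54.1 and 56.3 CPM.

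To show the sequence before the start of these neighboring genes, of another higher cathepsin (*Ctsc*), and of a highly expressed cathepsin that was not called (*Ctsd*), the 250 bases before the RefSeq start are given 5′ to 3′ on the gene's strand (RefSeq, GRCm38.p6). Capitals mark matches on either strand to the motifs searched. In GENCODE M21 *Ctsd* begins at 142388038 on the minus strand, so that most of its window lies inside the annotated gene.
*Ctss* (chr3:95526536-95526785, plus strand): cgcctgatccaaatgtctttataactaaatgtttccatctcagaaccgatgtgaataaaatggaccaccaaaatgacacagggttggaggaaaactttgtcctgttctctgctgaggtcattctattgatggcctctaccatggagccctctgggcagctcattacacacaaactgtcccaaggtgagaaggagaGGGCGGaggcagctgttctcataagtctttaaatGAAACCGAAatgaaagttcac
*Ctsk* (chr3:95498960-95499209, plus strand): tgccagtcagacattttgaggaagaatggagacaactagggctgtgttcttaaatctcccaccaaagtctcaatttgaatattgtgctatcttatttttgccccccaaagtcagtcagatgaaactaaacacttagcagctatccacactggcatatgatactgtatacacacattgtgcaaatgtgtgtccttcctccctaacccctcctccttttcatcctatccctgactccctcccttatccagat
*Ctsc* (chr7:88277835-88278084, plus strand): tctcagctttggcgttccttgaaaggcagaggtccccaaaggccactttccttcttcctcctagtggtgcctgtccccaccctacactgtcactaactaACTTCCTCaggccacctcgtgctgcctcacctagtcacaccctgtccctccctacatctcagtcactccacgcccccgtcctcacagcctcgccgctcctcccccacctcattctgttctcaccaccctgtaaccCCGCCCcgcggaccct
*Ctsd* (chr7:142387828-142388077, minus strand): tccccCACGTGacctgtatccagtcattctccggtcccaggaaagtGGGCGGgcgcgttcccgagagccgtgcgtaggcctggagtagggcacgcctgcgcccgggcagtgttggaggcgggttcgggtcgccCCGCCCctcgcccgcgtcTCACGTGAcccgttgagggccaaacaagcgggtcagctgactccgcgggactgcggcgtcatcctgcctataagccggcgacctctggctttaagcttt

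RefSeq windows were found for 7 of the 10 cathepsins, with 8 windows in all because *Ctsa* has a pair of starts. *Ctsb*, *Ctsh*, and *Ctsw* had none. The 7 motifs were the E-box CACGTG, the longer TCACGTGA that contains it (the core of the CLEAR element bound by TFEB and its relatives), the PU.1 site GAGGAAGT, the ETS core CCGGAAG, the interferon-stimulated element core GAAANNGAA, the AP-1 site TGANTCA, and the GC box GGGCGG. *Ctss* held GAAANNGAA, which began 21 bases before the start and is found in 7.13% of 32851 windows of the same length, and a GC box. *Ctsk* held none of the 7, and its window had 0 CpG pairs and a GC content of 43.2%, against a median of 6 pairs and 52.4% over all windows. *Ctsc* held the PU.1 site, 151 bases before the start and present in 2.44% of windows. TCACGTGA was in the window of *Ctsd*, in a single window of *Ctsa*, and in 0.785% of all windows. CACGTG was also in the window of *Ctsl* and in 6.02% of all. The *Ctsa* match was in the window from 164833523 to 164833772, and the other (164832622 to 164832871) held none of the 7 motifs. By the GENCODE M21 starts, this matching *Ctsa* window and the *Ctsl* window lie inside the annotated gene, as does most of that of *Ctsd*. A GC box was present in *Ctsc*, *Ctsd*, *Ctss*, and *Ctsz* and in 32.7% of all windows. Neither CCGGAAG (6.91% of windows) nor TGANTCA (6.75%) was found in any of the 8. These matches describe the letters in the windows and not sites of binding.

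Cathepsin S works with the proteins that load MHC class II and with the signals that cause its release. Of 11 genes listed for MHC class II loading and for fractalkine and purinergic signaling around cathepsin S, 7 were higher and 0 lower, with a median log2 fold change of 1.29. The shares of all genes tested to set beside this and the list counts below were 10.1% higher and 5.27% lower. *Cd74*, which encodes the invariant chain itself, had 2363, 1937, and 1545 reads in the controls and 23308, 11648, and 8703 with AAV5-*V1+V2*. It was higher by 2.88 on the log2 scale (standard error 0.38, adjusted p = 0.0144), beside 2.96 for *H2-DMb2*, which loads peptide onto class II, and 2.72 for *Ciita*, the class II transactivator. The ratio of *Ctss* to *Cd74* CPM within a library was between 0.239 and 0.307 with AAV5-*Gfp* and between 0.275 and 0.378 with AAV5-*V1+V2*. These ranges overlapped (exact permutation p = 0.3). *Cx3cl1*, which encodes fractalkine, a membrane-bound chemokine that cathepsin S can release, was higher by 0.70 on the log2 scale (standard error 0.19, adjusted p = 0.0490, chosen after its value was seen). Without AAV5-*Gfp* replicate 1, 2 of the 7 were called (*Cd74* and *H2-DMb2*), and without replicate 2 or 3, 0 were.

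Macrophages and dendritic cells are known sources of cathepsin S. Of 14 macrophage markers, 11 were higher and 0 lower (median log2 fold change 1.66), and their summed level was 210.3 to 223 CPM with AAV5-*Gfp* and 348 to 592 CPM with AAV5-*V1+V2*. The smallest p-values were those of the complement genes *C1qb* (log2 fold change 1.70), *C1qa* (1.93), and *C1qc* (1.78), and 0 of the 14 were at 0 in all libraries of a group. Of 8 dendritic cell markers, 6 were higher and 0 lower, with *Itgax* (log2 fold change 3.14), *Xcr1* (2.55), and *Ccr7* (3.39) first by p, and a summed level of 55.4 to 62.5 CPM that became 88.4 to 135 CPM. Without AAV5-*Gfp* replicate 1, 5 macrophage and 3 dendritic cell markers were called higher, and without replicate 2 or 3, 0 of either list were. *Ctss* differed by more than either sum. Its ratio to the summed macrophage markers was 0.0536 to 0.0971 in the controls and 0.200 to 0.452 with AAV5-*V1+V2*, and its ratio to the summed dendritic cell markers was 0.214 to 0.347 and 0.789 to 1.98 (exact permutation p = 0.1 for both, ratios chosen after the values were seen). In whole ganglia, a change in the number of cells of a type and a change in RNA per cell cannot be told apart. No ratio of *Ctss* to the B and plasma cell markers was taken. Their summed level was 36.3 to 54.5 CPM with AAV5-*Gfp* and 318 to 528 CPM with AAV5-*V1+V2*. The part of any of these cells in the level of *Ctss* was not tested.

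Cathepsin C, or dipeptidyl peptidase I, is the enzyme that activates granzymes and the serine proteases of neutrophils and mast cells by removing a dipeptide from their precursors. *Ctsc* lies on chromosome 7 of GRCm38 (88278085 to 88310888, plus strand, 7 exons). Its read counts were 1046, 1193, and 922 in the controls and 3997, 2114, and 1923 with AAV5-*V1+V2*. AAV5-*V1+V2* replicate 1 was well above the others of its group, and all 3 were above the controls. The level was 32.1 ± 2.45 CPM in the controls and 80.3 ± 35.8 CPM with AAV5-*V1+V2* (SD, n = 3 each), and the log2 fold change 1.32 (standard error 0.28, 95% interval 0.67 to 1.97, adjusted p = 0.0265). In the fits without AAV5-*Gfp* replicate 1, 2, or 3, the adjusted p was 0.0795, 0.0926, and 0.114. Of its listed substrates, 9 of 11 passed the filter, 1 was higher, and 0 were lower (median log2 fold change 0.75). The higher substrate was *Gzma*, which encodes granzyme A of cytotoxic lymphocytes, counted at only 4, 6, and 4 reads in the controls and 52, 16, and 17 with AAV5-*V1+V2* (log2 fold change 2.55, standard error 0.61, adjusted p = 0.0361). *Gzma* passed the filter on low counts only through the AAV5-*V1+V2* libraries, where it was high, so its call carries little weight. *Elane*, the neutrophil elastase gene, and *Gzmk* had log2 fold changes of 0.97 (adjusted p = 0.0695) and 1.29 (adjusted p = 0.1004). Neutrophil markers were higher in 2 of 10 (*Csf3r* and *Camp*, median log2 fold change 0.81, summed level 141.5 to 160.3 CPM and 199 to 401 CPM), and 0 of 7 mast cell markers were called in either direction. At an unadjusted p under 0.05 these numbers were 8 of 10 higher for neutrophils and 0 of 7 in either direction for mast cells, beside 19.2% of all genes tested that were higher.

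*Ctsh* and *Ctsz* encode cathepsin H, an aminopeptidase, and cathepsin Z (also called X), a carboxypeptidase. *Ctsh* lies on chromosome 9 (90054152 to 90076089, plus strand, 12 exons) and *Ctsz* on chromosome 2 (174427493 to 174439039, minus strand, 6 exons). *Ctsh* had 523, 399, and 345 reads in the controls and 1992, 1116, and 1026 with AAV5-*V1+V2*. Its level of 12.9 ± 2.85 CPM (SD, n = 3) became 41.3 ± 16.7 CPM (SD, n = 3), and the log2 fold change was 1.68 (standard error 0.29, 95% interval 1.00 to 2.35, adjusted p = 0.0172). *Ctsz* was the most expressed of the 5 higher cathepsins in the controls per length of transcript, and its fold change was the smallest. It had 1709, 1718, and 1544 reads in the controls and 4018, 2869, and 2341 with AAV5-*V1+V2*. The 3 controls were nearly equal, at 50.7 ± 1.98 CPM (SD, n = 3), whereas the AAV5-*V1+V2* libraries were spread at 92.2 ± 27.4 CPM (SD, n = 3). The log2 fold change of *Ctsz* was 0.86 (standard error 0.19, 95% interval 0.41 to 1.31, adjusted p = 0.0296). Without AAV5-*V1+V2* replicate 2 its adjusted p was 0.0624, and without each AAV5-*Gfp* library the adjusted p was between 0.0506 and 0.0902 for *Ctsh* and between 0.0809 and 0.119 for *Ctsz*.

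*Ctsw* encodes cathepsin W, a protease of T and natural killer (NK) cells, and was the least abundant of the 10 cathepsins. Its gene on chromosome 19 (5465043 to 5468507, minus strand, 10 exons) had 59, 61, and 44 reads in the controls and 254, 158, and 90 with AAV5-*V1+V2*. AAV5-*V1+V2* replicate 3, at 2.62 CPM, was the nearest to the controls, which reached 1.83 CPM. The means were 1.67 ± 0.224 and 5.03 ± 2.56 CPM (SD, n = 3 each), and the log2 fold change was 1.59 (standard error 0.38, 95% interval 0.71 to 2.47, adjusted p = 0.0346). This call was lost in limma-voom (adjusted p = 0.0681), without AAV5-*V1+V2* replicate 2 (0.0735), and without AAV5-*Gfp* replicate 1, 2, or 3 (0.0896, 0.110, and 0.132). Of 15 T and NK cell markers, 13 were higher and 0 lower (median log2 fold change 2.75), among them *Cd5* (3.19), *Cd4* (3.33), and *Cd247* (2.75). Their summed level was 10.1 to 21.5 CPM with AAV5-*Gfp* and 72.0 to 155 CPM with AAV5-*V1+V2*, so that *Ctsw* differed by less than the markers of the cells it is known from. The ratio of *Ctsw* to this sum was 0.0851 to 0.171 in the controls and 0.0364 to 0.0555 with AAV5-*V1+V2* (exact permutation p = 0.1, a ratio chosen after the values were seen).

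*Ctsa* encodes cathepsin A, a serine carboxypeptidase that also protects the lysosomal enzymes β-galactosidase and neuraminidase. It lies on chromosome 2 (164832873 to 164841032, plus strand, 16 exons). Read counts were 2176, 2311, and 1940 in the controls and 2994, 2594, and 2521 with AAV5-*V1+V2*. All 3 AAV5-*V1+V2* libraries, at 73.5 to 91.0 CPM, were above the controls, at 62.2 to 67.4 CPM. The log2 fold change was 0.30 (standard error 0.09, 95% interval 0.09 to 0.52) with an adjusted p of 0.0612 in edgeR. The adjusted p was 0.0333 in DESeq2, 0.0465 with total counts in place of TMM, and 0.0345 without AAV5-*V1+V2* replicate 3. A stretch of 1515 bp of *Ctsa* overlaps *Pltp* on the opposite strand, and whether strand was used in counting is not given in the sources used here, so reads there could be split between the genes. *Pltp* had 683, 702, and 545 reads in the controls and 1110, 914, and 780 with AAV5-*V1+V2*. Its part in the difference of *Ctsa* was not tested.

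*Ctsd*, *Ctsb*, and *Ctsl* encode cathepsins D, B, and L, the general endopeptidases of lysosomes, the first an aspartic and the others cysteine proteases. *Ctsd* lies on chromosome 7 (142375911 to 142388038, minus strand, 9 exons), *Ctsb* on chromosome 14 (63122462 to 63145923, plus strand, 10 exons), and *Ctsl* on chromosome 13 (64359337 to 64370890, minus strand, 8 exons). *Ctsd* had 18623, 19592, and 17421 reads in the controls and 21595, 19930, and 19740 with AAV5-*V1+V2*. *Ctsb* had 26499, 27862, and 25765 reads in the controls and 24978, 27335, and 26413 with AAV5-*V1+V2*. *Ctsl* had 7367, 7851, and 7442 reads in the controls and 6363, 7561, and 7580 with AAV5-*V1+V2*. The groups of all 3 genes overlapped after normalization. AAV5-*V1+V2* replicate 1 was the highest library for *Ctsd* (656 CPM) and the lowest for *Ctsb* (759 CPM) and *Ctsl* (193 CPM). The log2 fold changes were 0.11 for *Ctsd* (95% interval -0.10 to 0.31, adjusted p = 0.412), -0.06 for *Ctsb* (95% interval -0.26 to 0.14, adjusted p = 0.637), and -0.11 for *Ctsl* (95% interval -0.31 to 0.08, adjusted p = 0.368). These intervals reach no further than 0.31 in either direction on the log2 scale. In the annotation, *Ctsd* shares 6757 bp on its own strand with Gm49369 and *Ctsl* shares 395 bp with a pseudogene on its own strand and 1971 bp with the antisense gene Gm47123, none of which was analysed here, and *Ctsb* overlaps *Fdft1* by 774 bp on the opposite strand, so that some of their reads could belong to these.

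**Figure D3:**
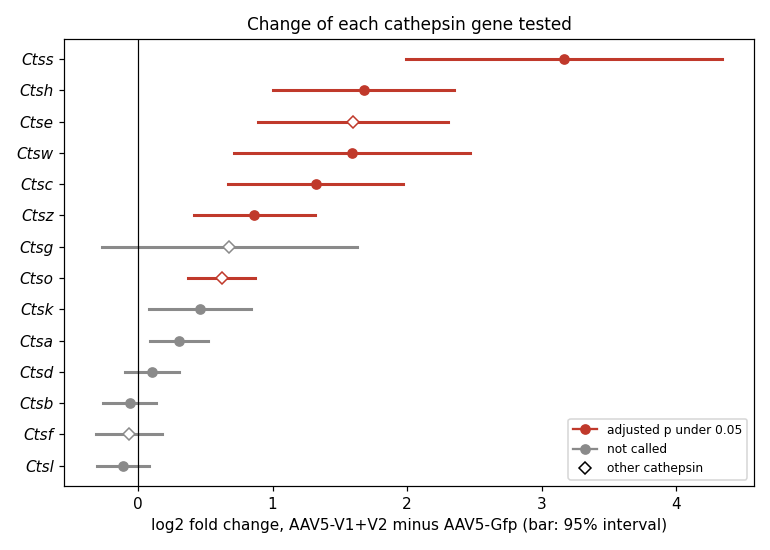
Log2 fold change (x axis, AAV5-*V1+V2* minus AAV5-*Gfp*, 3 libraries each) of the 10 cathepsins (circles) and 4 other cathepsin genes that passed the filter (diamonds), with 95% intervals as bars and genes at an adjusted p under 0.05 in red. *Ctss* stands apart at 3.17, whereas *Ctsd*, *Ctsb*, *Ctsf*, and *Ctsl* lie between 0.11 and -0.11 with intervals that cross 0.

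Because reads scale with transcript length, the 10 cathepsins were ranked by level as CPM per kb of the principal transcript. The ratios of CPM between genes given elsewhere are without length. They compare libraries, and not the amounts of transcript of different genes. With AAV5-*Gfp* the order was *Ctsd* (267 ± 4.45, SD, n = 3), *Ctsb* (172 ± 2.40), *Ctsl* (117 ± 3.27), *Ctsz* (35.2 ± 1.37), *Ctsa* (17.9 ± 0.781), *Ctsc* (12.9 ± 0.984), *Ctss* (12.5 ± 3.63), *Ctsh* (7.99 ± 1.76), *Ctsk* (7.87 ± 1.08), and *Ctsw* (1.34 ± 0.181). From *Ctsc* to *Ctsk*, each neighbor in this order overlapped the next over the 3 libraries, and the other neighbors did not overlap. With AAV5-*V1+V2*, *Ctss* was in the third place at 112 ± 76.1 CPM per kb (SD, n = 3). There its libraries, at 51.4 to 198, overlapped those of *Ctsb* (160.1 to 173) and *Ctsl* (98.1 to 115). *Ctsh* (25.6 ± 10.4) was above *Ctsa* (22.2 ± 2.50) in the means, with overlap, after having been below it in the controls.

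The make-up of the summed cathepsin mRNA differed accordingly. *Ctss* held 2.41%, 1.96%, and 1.36% of the summed CPM per kb of the 10 cathepsins in the controls and 20.2%, 10.96%, and 7.19% with AAV5-*V1+V2*. The share of *Ctsd* was 40.9% ± 0.177 (SD, n = 3) with AAV5-*Gfp* and 34.8% ± 3.16 (SD, n = 3) with AAV5-*V1+V2*. Those of *Ctsb* (26.4% ± 0.504 and 20.2% ± 3.40) and *Ctsl* (18.0% ± 0.690 and 13.4% ± 2.96) were also lower in every AAV5-*V1+V2* library, although their own levels were not called. The shares of *Ctsz* (5.39% and 7.58%), *Ctsc* (1.98% and 3.77%), *Ctsh* (1.22% and 3.0%), and *Ctsw* (0.206% and 0.470%) were higher in every AAV5-*V1+V2* library, and those of *Ctsa* and *Ctsk* overlapped. The sum itself was 652 ± 10.3 CPM per kb (SD, n = 3) with AAV5-*Gfp* and 832 ± 135 (SD, n = 3) with AAV5-*V1+V2*. The size of several differences depended on the length used, while their direction did not, except for *Ctsa*. Its groups overlapped with either length, and by CPM without length its share was higher in every AAV5-*V1+V2* library. By CPM without length, the differences in percentage points were 6.12 in place of 10.9 for *Ctss*, -1.91 in place of -6.06 for *Ctsd*, -2.37 in place of -4.63 for *Ctsl*, and 0.144 in place of 0.264 for *Ctsw*. With the union of exons as length, they were 0.791 in place of 1.78 for *Ctsh*, 0.933 in place of 1.79 for *Ctsc*, and -2.05 for *Ctsl*.

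**Figure D4:**
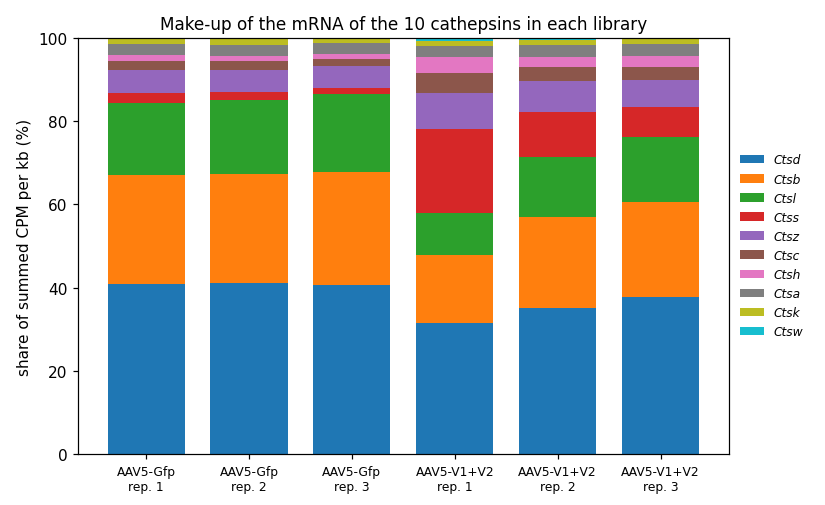
Share of each cathepsin in the summed CPM per kb of the 10 genes (y axis, percent), 1 bar for each library. *Ctss* (red) takes 1.36% to 2.41% of the AAV5-*Gfp* bars and 7.19% to 20.2% of the AAV5-*V1+V2* bars, and *Ctsd*, *Ctsb*, and *Ctsl* (the lower 3 segments) take less of the latter.

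Markers of resident cells were examined in the same way. Of 12 sensory neuron markers, 0 were higher and 2 were lower, *Rbfox3* (log2 fold change -0.93) and *Pvalb* (-0.51). At an unadjusted p under 0.05, 5 were lower and 0 higher, where 15.5% of all genes tested were lower and 19.2% higher. The log2 fold changes of the 12 ran from -0.93 to -0.20 with a median of -0.34, and the summed level was 4902 to 7126 CPM with AAV5-*V1+V2*, the lowest being replicate 1. Over the same 6 libraries, the ratios of *Ctsb*, *Ctsd*, and *Ctsl* to this sum were higher in every AAV5-*V1+V2* library, at 0.108 to 0.155 against 0.101 to 0.105 for *Ctsb* (exact permutation p = 0.1 for each, ratios chosen after the values were seen). Of 9 fibroblast markers, 4 were higher and 0 lower (median log2 fold change 0.47, summed level 1282 to 1663 CPM and 1991 to 2962 CPM), led by *Col3a1* (0.90), *Dpt* (1.84), and *Fap* (0.47). The ratio of *Ctsk* to this sum was 0.00734 to 0.00824 in the controls and 0.00662 to 0.00727 with AAV5-*V1+V2*. Osteoclast markers, the other known source of cathepsin K, passed the filter in 4 of 6, and *Acp5* (2.49), which macrophages also make, was the only higher gene among them. Of 8 genes for collagens and matrix proteins cut by cathepsin K, 5 were higher and 0 lower (median log2 fold change 0.64), with *Col3a1*, *Eln* (0.67), and *Col6a1* (0.60) first by p. What part these cells had in the cathepsin levels was not tested.

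Among the remaining marker lists, B and plasma cell genes were higher in 9 of 10 (median log2 fold change 3.11, 36.3 to 54.5 CPM and 318 to 528 CPM in sum), with *Jchain*, *Ms4a1*, and *Mzb1* first by p. Proliferation genes were higher in 5 of 6 (median 1.38, 28.4 to 32.7 CPM and 61.7 to 122 CPM), with *Cdk1*, *Ccnb1*, and *Top2a* first. Satellite glia markers were higher in 1 of 7 (*Slc1a3*, 0.35) and Schwann cell markers in 0 of 8, with medians of -0.08 and -0.0009 (at an unadjusted p under 0.05, 0 Schwann cell markers were higher and 1 was lower). Endothelial markers were higher in 1 of 7 (*Pecam1*, 0.88) and lower in 1 (*Flt1*, -0.42). Erythrocyte markers were called in 0 of 5 (median 0.11, with 1 higher at an unadjusted p under 0.05), at 889 to 1067 CPM and 831 to 1249 CPM in sum. The shares of all genes tested at an unadjusted p under 0.05 were 19.2% higher and 15.5% lower.

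Mice have further cathepsin genes, several of them expressed in narrow sets of cells. Of 13 with a row in the table, 4 passed the filter. *Ctse*, an endosomal aspartic protease, had 240, 310, and 192 reads in the controls and 1129, 599, and 549 with AAV5-*V1+V2* (log2 fold change 1.60, standard error 0.30, adjusted p = 0.0210). *Ctso*, a cysteine protease, had 504, 517, and 427 reads in the controls and 826, 768, and 683 with AAV5-*V1+V2* (log2 fold change 0.62, standard error 0.11, adjusted p = 0.0172). Both were thus higher, with the 3 AAV5-*V1+V2* libraries of *Ctso* closer together than those of *Ctse*. *Ctsf* (log2 fold change -0.07, adjusted p = 0.682) and *Ctsg*, the neutrophil granule protease (0.68, 95% interval -0.27 to 1.63, adjusted p = 0.274), were not called. *Ctsg* had only 19 to 58 reads a library. The other 9 belong to the placental cathepsins of rodents, 8 of which had 0 reads in all 6 libraries, while *Ctsll3* had 1 read in AAV5-*V1+V2* replicate 3.

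Endogenous inhibitors restrain cathepsins once these leave the lysosome. Of 13 tested in a broad list of protease inhibitors that includes serpins, 4 were higher and 1 was lower, with a median log2 fold change of 0.16. Whether each of these inhibitors acts on cathepsins was not examined. *Cst7*, which encodes cystatin F, the cystatin that enters lysosomes of immune cells and acts on cathepsin C, had 38, 51, and 39 reads in the controls and 298, 145, and 90 with AAV5-*V1+V2*. It was higher by 2.03 on the log2 scale (standard error 0.44, adjusted p = 0.0279), and the serpin gene *Serpinb6b* by 1.10 (standard error 0.22, adjusted p = 0.0230). *Spock1*, a proteoglycan gene of neurons whose product inhibits cathepsin L, was the lower gene, at 4495, 5360, and 6165 reads in the controls and 2545, 3111, and 3936 with AAV5-*V1+V2* (log2 fold change -0.78, standard error 0.17, adjusted p = 0.0296). *Cst3*, the gene of the secreted inhibitor cystatin C, was at 224 ± 16.5 CPM in the controls and 224 ± 1.75 CPM with AAV5-*V1+V2* (SD, n = 3 each; log2 fold change 0.00, 95% interval -0.18 to 0.18, chosen after its value was seen). The ratio of *Ctss* to *Cst3* CPM, chosen in the same way, was 0.0561 to 0.0894 in the controls and 0.313 to 1.19 with AAV5-*V1+V2* (exact permutation p = 0.1).

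The general machinery of the lysosome brings cathepsins to an acid compartment. Of 15 genes for the sorting and activation of lysosomal enzymes, 2 were higher and 0 lower (median log2 fold change 0.09). Over all genes tested, 10.1% were higher and 5.27% lower. The 2 higher genes were *Grn* (0.85, standard error 0.15, adjusted p = 0.0182), which encodes progranulin, and *Nagpa* (0.64, standard error 0.17, adjusted p = 0.0443), which encodes the uncovering enzyme of the mannose 6-phosphate tag. *Sorl1* had a log2 fold change of -0.29 (adjusted p = 0.0644). Of 27 genes for the lysosomal membrane and its proton pump, 6 were higher and 0 lower, with a median of 0.003. The smallest p-values there belonged to *Laptm5* (2.22), *Slc11a1* (2.32), and *Cd68* (2.29), which are known mainly from leukocytes.

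Other lysosomal hydrolases were higher in 10 of 35 and lower in 0, with a median log2 fold change of 0.19. These counts stand beside 10.1% higher and 5.27% lower over all genes tested. *Gusb*, the gene of β-glucuronidase, had 450, 548, and 442 reads in the controls and 1046, 837, and 773 with AAV5-*V1+V2* (log2 fold change 0.85, standard error 0.14, adjusted p = 0.0153). *Man2b1*, for lysosomal α-mannosidase, was close to it at 0.92 (standard error 0.15, adjusted p = 0.0159), and *Acp5*, for tartrate-resistant acid phosphatase, was at 2.49 (standard error 0.40, adjusted p = 0.0157). Among 11 regulators of lysosomal genes, 4 were higher and 0 lower (median 0.35). *Tfec*, the family member known from macrophages, was higher by 2.59 on the log2 scale (standard error 0.50, adjusted p = 0.0226), against 0.65 (standard error 0.17, adjusted p = 0.0440) for *Tfeb* and 0.46 (standard error 0.10, adjusted p = 0.0269) for *Fnip1*. Over these 9 lists beside the 10 cathepsins, 41 genes were higher and 1 was lower. Without AAV5-*Gfp* replicate 1, 2, or 3 these became 3, 0, and 0 higher and 0 lower, and without AAV5-*V1+V2* replicate 2 they became 23 and 0. The marker lists had 53 higher and 3 lower genes, which became 28, 1, and 1 higher and 0 lower without AAV5-*Gfp* replicate 1, 2, or 3. Without AAV5-*V1+V2* replicate 2 they became 41 and 0. Over all genes tested, the 1872 higher genes became 257, 12, and 15 without AAV5-*Gfp* replicate 1, 2, or 3. They became 1020 without AAV5-*V1+V2* replicate 2.

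**Figure D5:**
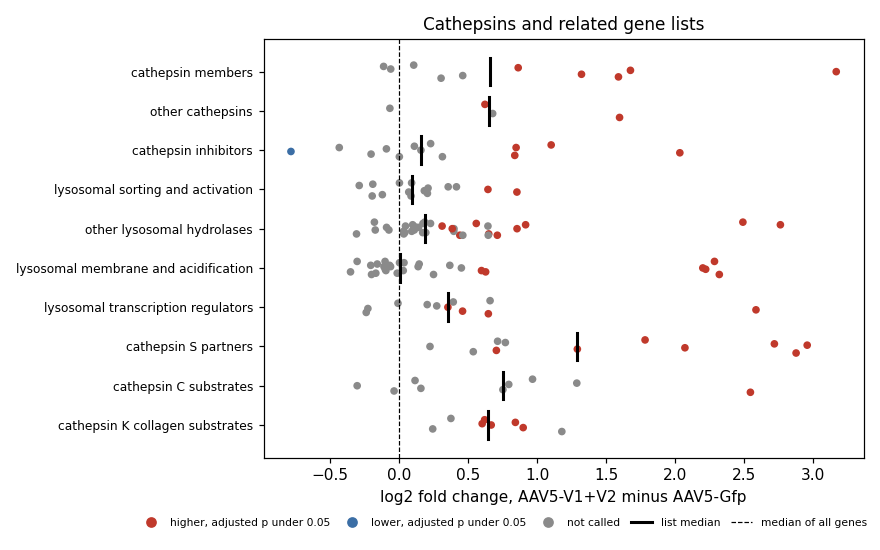
Log2 fold change (x axis, AAV5-*V1+V2* minus AAV5-*Gfp*) of each gene tested in the cathepsin list and 9 related lists (rows), with genes called higher in red, called lower in blue, and not called in gray, the list median as a black bar, and the median of all genes as a dashed line. The medians run from 0.003 for the lysosomal membrane genes to 1.29 for the cathepsin S partners, with the 10 cathepsins at 0.66.

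The genes most like *Ctss* over the 6 libraries, by Pearson's correlation among 14563 genes whose mean log2 CPM was 1 or more, were *Havcr2* (r = 0.9993), *Pld4* (0.9991), and *Klf2* (0.9990). For *Ctsw* they were *M6pr* (0.9978), *C1qtnf6* (0.9977), and *Gltp* (0.9975), and for *Ctsk* they were *Rnh1* (0.9990), *Pym1* (0.9977), and *Rnu3a_2* (0.9970). The points of these correlations are the libraries of the 2 groups, so that a high r reflects the same relative spacing of libraries on the log scale, and the folds behind it differed. *Pld4*, for instance, had a log2 fold change of 2.04 beside 3.17 for *Ctss*, and *M6pr*, which encodes the cation-dependent receptor that carries cathepsins to lysosomes, had 0.21 (adjusted p = 0.102) beside 1.59 for *Ctsw*.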

How the data were processed

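Read counts per gene (whole numbers, without normalization) were deposited by the authors as 1 table for 6 stranded total RNA libraries. The submitters' processing notes name the builds GRCm38 and mm10. The aligner, the annotation, and the use of strand in counting are not given in the sources used here. The cathepsins and the gene lists (10 pathway lists with the cathepsins and 14 marker lists) were chosen with earlier results of these data known.

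Counts were analyzed in R 4.3.3 with edgeR 4.0.16 (filterByExpr, TMM, glmQLFit, glmQLFTest, without covariates), and a gene was called where its p, adjusted after Benjamini and Hochberg, was under 0.05. Standard errors were derived from each coefficient and its F statistic. The exact permutation test used log2(CPM + 0.1). The pipeline was tested on simulated counts. DESeq2 1.42.0, limma-voom (limma 3.58.1), other normalizations and filters, and leave-one-out fits were alternatives. Per-length levels used the principal transcript with the lowest Ensembl number in GENCODE M21 (GRCm38), and the union of exons was added after seeing the data. Total counts of 32025612 to 34764282 a library limit counting error, and not the spread between libraries, and pairs of libraries of a group differed by 8.87 to 52.9 chi-square units per degree of freedom, so that none was a duplicate.

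Named genes were the 10 cathepsins, other cathepsins that passed the filter, up to 3 genes of each list with the smallest p and any called lower, and the 3 genes most like *Ctss*, *Ctsw*, and *Ctsk*. The injected transcripts were not analysed here.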

Additional observations from a re-analysis of the deposited data

How the results depend on the processing

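The number of higher cathepsins, 5, was 5 with RLE size factors, without a filter, and with a filter of at least 10 counts in 3 libraries, 6 with total counts and in DESeq2, and 4 in limma-voom. It ranged from 0 to 7 over the fits that left out a library, with 0 without each AAV5-*Gfp* library and 3 without AAV5-*V1+V2* replicate 2. The count of lower cathepsins was 0 throughout. Over all genes, the fits that left out a library gave 12 to 2474 higher and 0 to 1446 lower genes, and DESeq2 gave 1606 lower genes in place of 980. Total counts in place of TMM shifted the median of all genes by 0.06 on the log2 scale and made 74.6% of calls higher in place of 65.6%. The replicate numbers correlated across groups at 0.036, 0.066, and 0.107 for numbers 1, 2, and 3. Each library correlated best with its own number except AAV5-*V1+V2* replicate 1, which was at 0.043 with AAV5-*Gfp* replicate 2. The labels do not state whether libraries of the same number were paired or shared a batch, and this was not tested. With a replicate block, 6 cathepsins were higher (*Ctsa* added), and 2118 higher and 1341 lower genes were called. The standard error of *Ctss* was then 0.21 in place of 0.50. The sign of *Ctsf* reversed without AAV5-*V1+V2* replicate 1 (log2 fold change 0.033, with -0.13 at the other end of the range over the fits that left out a library), and the difference in share of *Ctsa* reversed from -0.07 to 0.269 percentage points with CPM in place of CPM per kb. Over 14 cathepsin genes and 13 alternatives, 152 fits kept sign and call, 24 lost the call, 5 gained it, and 1 reversed. The cause of these changes was not tested.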
